A study of Mus musculus with 20 samples.

Results

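The erythroid genes described here are 30 genes that red cells and their precursors use to make hemoglobin, heme and the red cell membrane, together with the factors that switch them on. They were taken as a named list and matched by mouse symbol to the 49585 gene IDs of the count table, where 29 of the 30 were found, each with 1 gene ID. Ahsp, the alpha hemoglobin stabilizing protein, was not matched and is not analysed here. The 29 genes fall into 4 adult globins, 3 enzymes of heme synthesis, 6 regulators, 2 receptors, 10 genes of the membrane and its skeleton, and 4 genes of the cytoplasm. All 29 passed the filter on low counts that left 20616 genes for testing in the tumours.

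Red cells arise in the bone marrow from erythroblasts, which carry the regulators Gata1, Klf1 and Tal1 and lose their nucleus as they mature. Circulating red cells of a mouse have no nucleus but keep some globin mRNA for a time, so globin RNA reaches a tissue sample with its blood, whereas the mRNA of the regulators is found in the nucleated precursors. A bone tumour can hold both blood and marrow. In a bulk sample, fewer cells of a type and less RNA per cell cannot be told apart.

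RNA was sequenced from 18 primary osteosarcomas, malignant tumours of bone, taken at necropsy from mice of a mixed C57BL/6J and 129S/SvJae strain. They came from 6 p53R172H/+, 3 p53R245W/+ and 5 p53R270H/+ mice, which carry a missense allele of the tumour suppressor gene Trp53 beside a wild-type one, and from 4 p53+/- mice, in which that allele is lost instead. These groups are called R172H, R245W, R270H and p53 het. All the mice share 1 wild-type allele at birth, and whether the tumours still have it is not labelled, nor are age, sex or site. The other 2 libraries come from osteosarcoma cell line 14, whose label gives p53R245/O, with siRNA against p53 and as its control. The control is labelled p53 heterozygous mutant with LOH (loss of heterozygosity). The line is a single line with 1 library in each state. The genotypes are set against p53 het, and against each other, to ask whether the hotspot mutants differ in the tumour.

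Tumour libraries held 20.1 to 29.2 M (mega) counts. Levels are in CPM, the counts of a gene in each M counts of its library. A gene with 0 counts may be present at up to 3 counts, or 0.103 to 0.149 CPM in these libraries. Trp53 was read at 36.3 to 71.3 CPM in R172H, 57.5 to 74.0 CPM in R245W and 26.5 to 53.2 CPM in R270H tumours, against 13.5 to 27 CPM in p53 het tumours. The summed level of 8 osteoblast genes was 13525 CPM or more in every tumour. Titles of all R270H tumours and of p53 het 3 and 4 lack a serial number that the titles of the other 11 tumours carry. No R270H tumour therefore shares its kind of title with an R172H or R245W tumour, and a fit with title as covariate separates genotype from title through the 4 p53 het tumours alone. One tumour stood apart on these genes: R270H 5 had the highest level of 18 for 27 of the 29 genes, although it was highest for only 3.72% of all tested genes. Results that rest on it are therefore given with and without it. In the text ± is the standard error (SE) for log2 folds and the standard deviation (SD) for CPM.

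**Figure D1:**
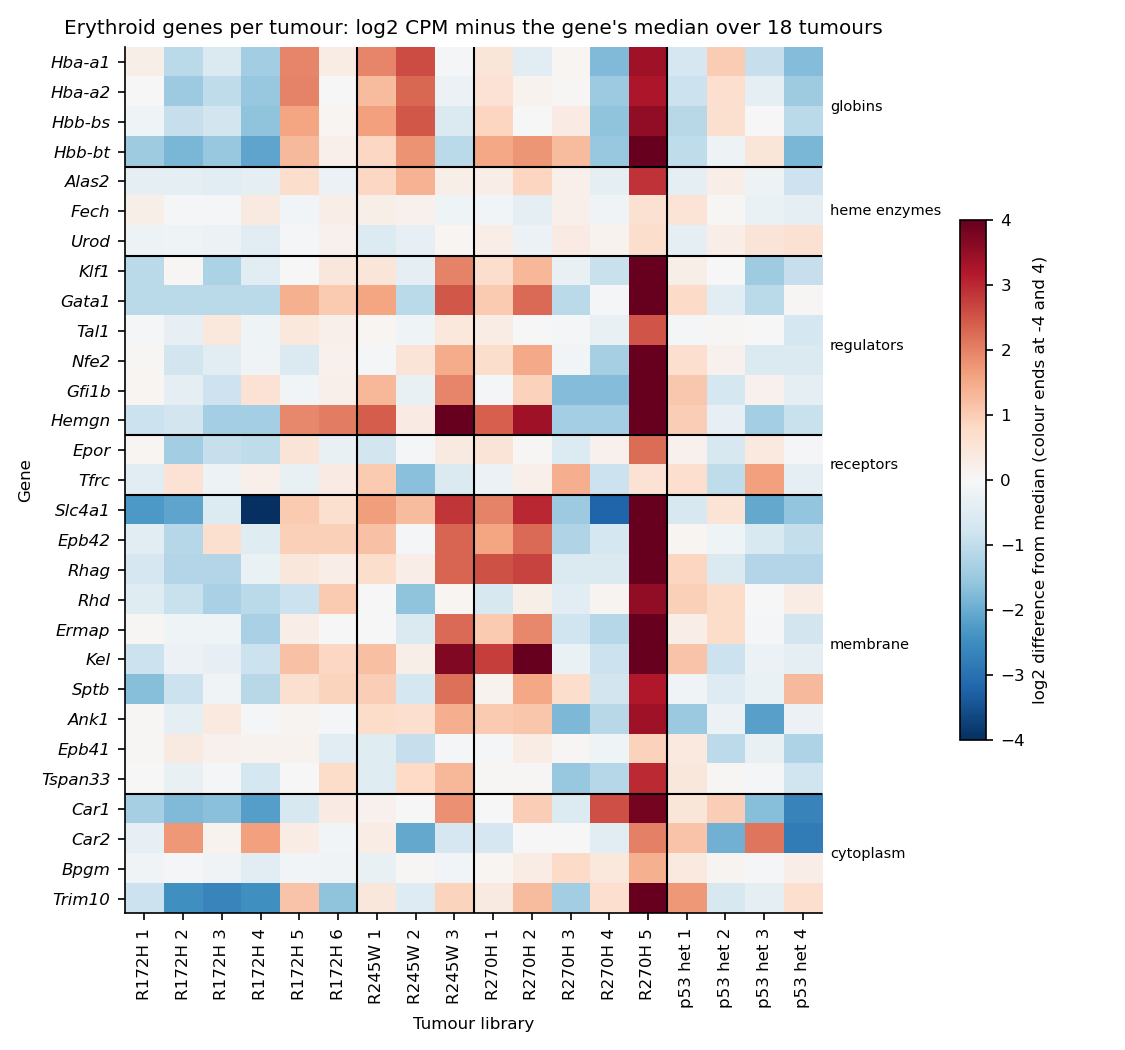
Each cell of the heatmap is the log2 CPM of a gene in a tumour minus that gene's median over the 18 tumours; columns are tumours by genotype and lines divide genotypes and gene roles. The column of R270H 5 is the darkest for most genes, R245W 3 and R270H 2 are raised for regulator and membrane genes, and R245W 2, R245W 1 and R172H 5 for globins.

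The globins come in near-identical copies, and this limits what a single copy's count can say. The coding sequences of the alpha globins Hba-a2 and Hba-a1, each 429 bases long, differ at 1 base (99.8% identity), and those of the beta globins Hbb-bt and Hbb-bs, each 444 bases long, also differ at 1 base (99.8%). Of all stretches of 100 bases, 85.2% of those of Hba-a2 occur unchanged in Hba-a1 and 91.9% of those of Hbb-bt in Hbb-bs. Most coding reads with these reference sequences therefore cannot be assigned to a copy. How such reads were counted is not given in the sources used here. Which globin alleles each mouse of the mixed strain carried is not labelled. The 120 coding bases that end at the differing position, from the reference transcripts on chromosomes 11 and 7, are shown to make this visible, with the differing base in capitals.
Hba-a2: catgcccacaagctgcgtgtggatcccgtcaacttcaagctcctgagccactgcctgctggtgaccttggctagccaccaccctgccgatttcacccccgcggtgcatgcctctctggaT
Hba-a1: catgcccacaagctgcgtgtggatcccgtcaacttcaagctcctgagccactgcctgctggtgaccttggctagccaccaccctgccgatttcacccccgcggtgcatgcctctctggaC
Hbb-bt: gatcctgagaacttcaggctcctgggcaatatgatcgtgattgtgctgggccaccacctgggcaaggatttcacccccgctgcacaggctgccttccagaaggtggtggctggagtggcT
Hbb-bs: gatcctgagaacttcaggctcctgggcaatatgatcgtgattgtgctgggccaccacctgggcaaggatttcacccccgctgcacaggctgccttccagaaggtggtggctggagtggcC

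The proximal promoters of the listed genes were searched for known erythroid sequence words, whether or not the genes differed between tumours. For 23 of the 30 listed genes RefSeq (build GRCm38.p6) gave 27 promoter windows of 250 bases before a start. The word bound by Gata1 and its relatives (AGATAA or TGATAA, or the same with G as the last letter, on either strand, all sharing the letters GATA) occurred in 16 of the 27 windows, 59.3%, against 26.5% of all 32851 windows of that length. The word CCACACCC of Klf1 and its relatives occurred in 1 of the 27 windows, that of Hbb-bs, or 3.7%, against 3.2% of all windows. The word CCAAT occurred in 17 of the 27 windows, 63.0%, against 33.8% of all windows. A match describes letters and is not evidence of a bound site. The windows of both beta globins, of Alas2 and of Klf1 are printed 5′ to 3′ on the strand of the gene, with the GATA and CCACACCC words of either strand in capitals. They lie at chr7:103827929-103828178 (minus strand) for Hbb-bs, chr7:103813924-103814173 (minus) for Hbb-bt, chrX:150547167-150547416 (plus) for Alas2 and chr8:84901732-84901981 (plus) for Klf1.
Hbb-bs: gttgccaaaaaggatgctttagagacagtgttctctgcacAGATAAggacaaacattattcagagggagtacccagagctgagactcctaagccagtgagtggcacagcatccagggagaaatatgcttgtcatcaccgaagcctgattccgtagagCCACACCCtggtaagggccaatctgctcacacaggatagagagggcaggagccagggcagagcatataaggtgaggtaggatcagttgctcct
Hbb-bt: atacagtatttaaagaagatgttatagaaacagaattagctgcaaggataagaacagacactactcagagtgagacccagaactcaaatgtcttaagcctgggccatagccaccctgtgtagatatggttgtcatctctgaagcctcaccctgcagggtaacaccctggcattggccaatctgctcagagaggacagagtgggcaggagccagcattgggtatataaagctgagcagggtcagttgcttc
Alas2: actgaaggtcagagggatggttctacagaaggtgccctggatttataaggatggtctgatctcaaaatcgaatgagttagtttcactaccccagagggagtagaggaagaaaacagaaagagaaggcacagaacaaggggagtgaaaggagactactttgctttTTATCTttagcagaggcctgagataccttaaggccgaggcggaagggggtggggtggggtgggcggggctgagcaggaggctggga
Klf1: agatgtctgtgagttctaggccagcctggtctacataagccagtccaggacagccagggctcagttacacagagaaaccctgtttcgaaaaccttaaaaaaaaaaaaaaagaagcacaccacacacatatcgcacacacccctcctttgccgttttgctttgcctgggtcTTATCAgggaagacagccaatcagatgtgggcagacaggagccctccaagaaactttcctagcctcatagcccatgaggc
The Hbb-bs window held 1 match to a GATA word and the only CCACACCC of the 27, Alas2 and Klf1 held 1 GATA match each, and the Hbb-bt window held neither word.

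Per length, the order of the genes was led by globins and by genes that many other cells use. In CPM per kilobase of exon, the median over the 18 tumours was 109 for Hbb-bs, 36.7 for the transferrin receptor Tfrc, 35.4 for Hba-a1, 15.5 for the carbonic anhydrase Car2 and 15 for Hba-a2. The lowest medians were 0.0441 for Rhag, 0.0387 for Gata1 and 0.0254 for Kel. These 3 genes had a median of 3 counts or fewer. In R270H 5 the same scale gave 1379 for Hbb-bs, 38.5 for the anion exchanger Slc4a1, 12.6 for Hemgn and 11 for Klf1.

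The adult globins were detected in all 18 tumours, and for each of the 4 every mutant group overlapped p53 het. Hbb-bs (chromosome 7, 103826534 to 103828096), the major beta chain of the C57BL/6 haplotype, ranged from 31.2 to 284 CPM with a median of 67.6 CPM in R172H tumours. It had 282, 480 and 61.1 CPM in R245W tumours 1 to 3, 166, 98.5, 99.0, 29.9 and 1059 CPM in R270H tumours 1 to 5, and 37.9, 118, 83.1 and 43.9 CPM in p53 het tumours 1 to 4. The high values belonged to single tumours: R270H 5, R245W 2, R172H 5 and R245W 1. Hba-a1 (chromosome 11, 32283511 to 32284465), an alpha chain, ranged from 12.4 to 127 CPM with a median of 27.4 CPM in R172H tumours. It had 119, 181 and 29.1 CPM in R245W tumours, 44.2, 24.8, 28.4, 9.13 and 321 CPM in R270H tumours and 17.8, 52.6, 14.8 and 9.41 CPM in p53 het tumours. The same 4 tumours were highest for the alpha chain.

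Hba-a2, the second alpha gene, ranged from 4.03 to 46.9 CPM (median 7.81) in R172H tumours. It had 26.4, 52.2 and 9.35 CPM in R245W tumours, 16.9, 13.4, 9.98, 4.05 and 105 CPM in R270H tumours and 5.60, 14.8, 7.81 and 4.21 CPM in p53 het tumours. Hbb-bt, the second beta gene, departed from the other globins. It ranged from 1.40 to 15.7 CPM (median 2.13) in R172H tumours and had 10.7, 19.8 and 2.80 CPM in R245W tumours. It had 18, 22.1, 12.7, 2.02 and 151 CPM in R270H tumours, against 2.68, 4.38, 7.72 and 1.68 CPM in p53 het tumours. After R270H 5 its highest tumour was R270H 2, which ranked 7 of 18 for the sum of the 4 globins.

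Hbb-bt made up 2.65% to 6.66% of the beta globin counts in R172H tumours (median 3.95%), 3.64% to 4.38% in R245W tumours (3.96%) and 6.34% to 18.3% in R270H tumours (11.3%), against 3.59% to 8.50% in p53 het tumours (5.14%). The share differed between kinds of title: 3.68% to 18.3% with a median of 9.76% in the 7 tumours without a serial number, and 2.65% to 6.66% with a median of 3.96% in the 11 tumours with one. The ratio of alpha to beta globin moved with the titles too, at 0.249 to 0.413 without a serial number and 0.377 to 0.601 with one. Within p53 het the alpha to beta ratio was 0.249 and 0.299 in the tumours without a serial number and 0.577 and 0.552 in those with one, so the ratio differed by title within this genotype. The Hbb-bt share there was 8.50% and 3.68% without a serial number and 6.60% and 3.59% with one, and overlapped. With 2 tumours of each kind these differences were not tested, and the part of read assignment between near-identical copies was not tested.

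Of the heme enzymes, Alas2 had the widest range. Alas2 (chromosome X, 150547375 to 150570638) is the erythroid form of the first and rate-limiting enzyme of heme synthesis. It ranged from 10.1 to 23.5 CPM (median 10.7) in R172H tumours. It had 23.8, 33.7 and 15.9 CPM in R245W tumours, 16.4, 26.8, 13.4, 10.3 and 99.2 CPM in R270H tumours and 9.35, 13.7, 10.9 and 7.84 CPM in p53 het tumours. Each R245W tumour lay above each p53 het tumour, as for 6.21% of all tested genes. Fech and Urod, a later enzyme each that every heme-making cell uses, stayed within narrower limits: Fech from 57.3 to 115 CPM and Urod from 19.9 to 48.0 CPM over all tumours. R270H 5 was again highest for both, with 1.11 times the next tumour for Fech and 1.04 times for Urod.

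Erythroblast regulators were low in most tumours and far above the rest in 1. Klf1 (chromosome 8, 84901928 to 84905291), which activates adult beta globin, ranged from 0.116 to 0.506 CPM (median 0.349) in R172H tumours. It had 0.579, 0.273 and 1.80 CPM in R245W tumours, 0.709, 1.21, 0.262, 0.172 and 16.8 CPM in R270H tumours and 0.434, 0.331, 0.0878 and 0.171 CPM in p53 het tumours. R270H 5 had 9.38 times the level of the next tumour, R245W 3, which R270H 2 followed. Gata1 (chromosome X, 7959260 to 7978071), which red cell precursors share with megakaryocytes, eosinophils and mast cells, had 0 counts in 4 of the 6 R172H tumours and 0.418 and 0.253 CPM in R172H 5 and 6. It had 0.446, 0 and 0.918 CPM in R245W tumours, 0.284, 0.823, 0, 0.0861 and 8.20 CPM in R270H tumours, and 0.197, 0.0368, 0 and 0.103 CPM in p53 het tumours. The order at the top, R270H 5, R245W 3 and R270H 2, was that of Klf1.

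Hemgn, a nuclear protein of erythroid cells, reached 31.6 CPM in R270H 5 and 3.47 CPM in R245W 3, with a median of 0.128 CPM over the tumours. Nfe2, which works with Gata1 on globin genes and platelet genes, reached 15.2 CPM in R270H 5 and at most 2.91 CPM elsewhere. Gfi1b, a repressor of erythroid and megakaryocyte cells, reached 4.34 CPM in R270H 5 and at most 1 CPM elsewhere. Tal1, which blood stem cells and endothelium also express, was the least variable regulator, with 24.1 CPM in R270H 5 and 2.57 to 5.86 CPM in the other 17 tumours.

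The receptors differed from each other. Epor, the erythropoietin receptor, had 11 CPM in R270H 5 and at most 3.49 CPM elsewhere. Tfrc (chromosome 16, 32608920 to 32632794), which takes up iron in all dividing cells, did not follow the erythroid pattern. It ranged from 167 to 373 CPM (median 227) in R172H tumours. It had 466.1, 67.9 and 152 CPM in R245W tumours, 196, 284, 540, 126 and 341 CPM in R270H tumours and 331.5, 94.5, 662 and 179 CPM in p53 het tumours. R245W 2, second of the tumours for globins, was lowest for Tfrc.

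Membrane genes differed in how widely they ranged. Slc4a1 (chromosome 11, 102348824 to 102366203), the band 3 anion exchanger, ranged from 0.0399 to 5.07 CPM (median 1.02) in R172H tumours. It had 7.31, 5.28 and 17.0 CPM in R245W tumours, 9.31, 20.2, 0.673, 0.172 and 188 CPM in R270H tumours and 1.30, 2.80, 0.439 and 0.719 CPM in p53 het tumours. Each R245W tumour lay above every R172H and every p53 het tumour, as for 2.02% and 6.21% of all tested genes, while the R270H tumours ran from 0.172 to 188 CPM. The blood group and complex genes Kel, Rhag and Rhd had 20.2, 14.4 and 25 CPM in R270H 5, and at most 3, 1.26 and 3.88 CPM in any other tumour. Epb42, which anchors band 3 to the skeleton, had 29.5 CPM in R270H 5 and at most 2.47 CPM elsewhere, and Ermap, an erythroblast surface protein, 36.0 CPM and at most 6.76 CPM. Other genes of the membrane and its skeleton were raised less in R270H 5: 1.34 times the next tumour for Epb41, 2 times for Sptb, 3.16 times for Tspan33 and 3.86 times for Ank1.

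**Figure D2:**
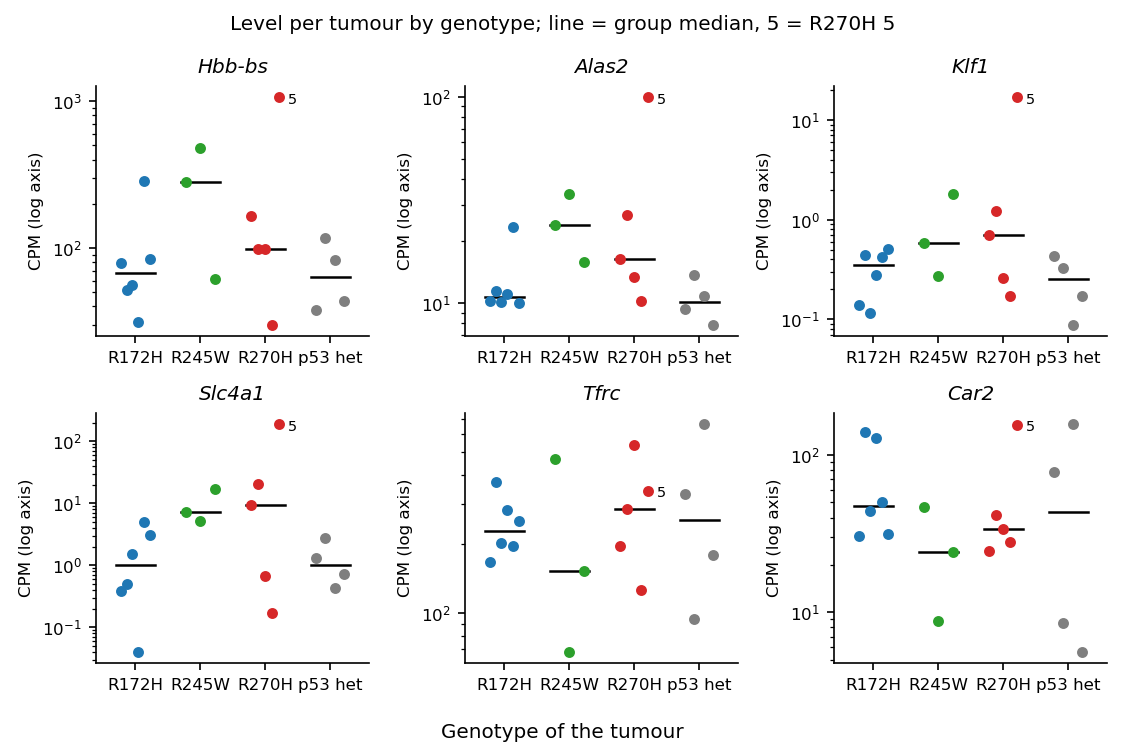
Each point is the CPM of a tumour on a log axis, by genotype, with a line at the group median and the digit 5 beside R270H 5. That tumour is far above the rest for Klf1 (16.8 CPM) and Slc4a1 (188 CPM), less so for Hbb-bs and Alas2, and within the range of the others for Tfrc and Car2.

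Among the cytoplasmic genes, Bpgm varied least. Bpgm (chromosome 6, 34476207 to 34505613) makes 2,3-bisphosphoglycerate, which lowers the oxygen affinity of hemoglobin. It averaged 13.1 ± 1.55 CPM in R172H, 13.0 ± 1.30 CPM in R245W, 22.8 ± 9.07 CPM in R270H and 15.1 ± 2.75 CPM in p53 het tumours (SD, n = 6, 3, 5 and 4), and its lowest R270H tumour had 15.3 CPM. Car1, a carbonic anhydrase of red cells and gut, reached 10.5 CPM in R270H 5 and 4.44 CPM in R270H 4, and Trim10, needed for erythroid differentiation in mouse cells, reached 27.5 CPM in R270H 5 and at most 5.09 CPM elsewhere. Car2 (chromosome 3, 14886273 to 14900770), which osteoclasts also make, ranged from 30.4 to 141 CPM (median 47.1) in R172H tumours. It had 47.0, 8.74 and 24.1 CPM in R245W tumours, 24.7, 41.6, 33.6, 28.1 and 156 CPM in R270H tumours and 78.4, 8.58, 157 and 5.58 CPM in p53 het tumours. Its highest tumour was p53 het 3, with R270H 5 next.

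Globins and erythroblast genes were high together in some tumours and apart in others. Relative to the tumours' median, the median globin of R245W 2 was higher by 2.39 on the log2 scale, while its median regulator was at -0.24 and its median membrane gene at 0.08. R172H 5 gave 1.76 for globins, 0.21 for regulators and 0.35 for membrane genes. R245W 3 was the reverse, with globins at -0.41, regulators at 1.95 and membrane genes at 2.23, and R270H 2 gave 0.08, 1.42 and 1.73. R270H 5 was high on all of them, at 3.47, 4.57 and 4.11, and so, to a smaller degree, were R245W 1, at 1.45, 0.91 and 0.72, and R270H 1, at 0.72, 0.70 and 1.04. The 4 globins summed to 6.01 times Slc4a1 in R245W 3, 7.84 times in R270H 2 and 8.69 times in R270H 5, and to 139 times in R245W 2. Over the tumours with more than 3 Slc4a1 counts this ratio reached 333 times, in R172H 1.

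Correlations of log2 CPM over the 18 tumours were computed for 8 pairs with a two-sided permutation test of 100000 resamples, and adjusted over 16 statistics. Hbb-bs followed Hba-a1 (Pearson r = 0.961, Spearman rho = 0.938, each with permutation p = 1e-05, the smallest these resamples can give, adjusted p = 3.2e-05), and r was 0.926 without R245W 2 and R270H 5, the tumours farthest from the median. Within the 11 tumours with a serial number r was 0.991, and within the 7 without one 0.988. Hbb-bs also followed Alas2 (r = 0.898, rho = 0.851, permutation p = 1e-05 and adjusted p = 3.2e-05 for both), with r = 0.784 without those tumours, 0.919 with a serial number and 0.923 without one, which fell to 0.666 without R270H 5. The main alpha and beta globins and the erythroid heme enzyme thus varied together in tumours with either kind of title.

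The relation of Hbb-bs to Klf1 rested on R270H 5. Over all tumours r was 0.574 (permutation p = 0.0157, adjusted 0.0252) and rho 0.420 (permutation p = 0.0835, adjusted 0.121). Without R270H 5 alone r was 0.194. It was 0.284 without both R270H 5 and R245W 2, the tumours farthest from the median of Hbb-bs. It was 0.0329 within the 11 tumours with a serial number and 0.896 within the 7 without one, which fell to 0.533 without R270H 5. Klf1 and Gata1 went together (r = 0.916 with permutation p = 1e-05 and adjusted p = 3.2e-05, rho = 0.805 with permutation p = 0.00016 and adjusted p = 0.000427). Their r stayed at 0.766 without R245W 3 and R270H 5, at 0.828 with a serial number and at 0.967 without one.

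**Figure D3:**
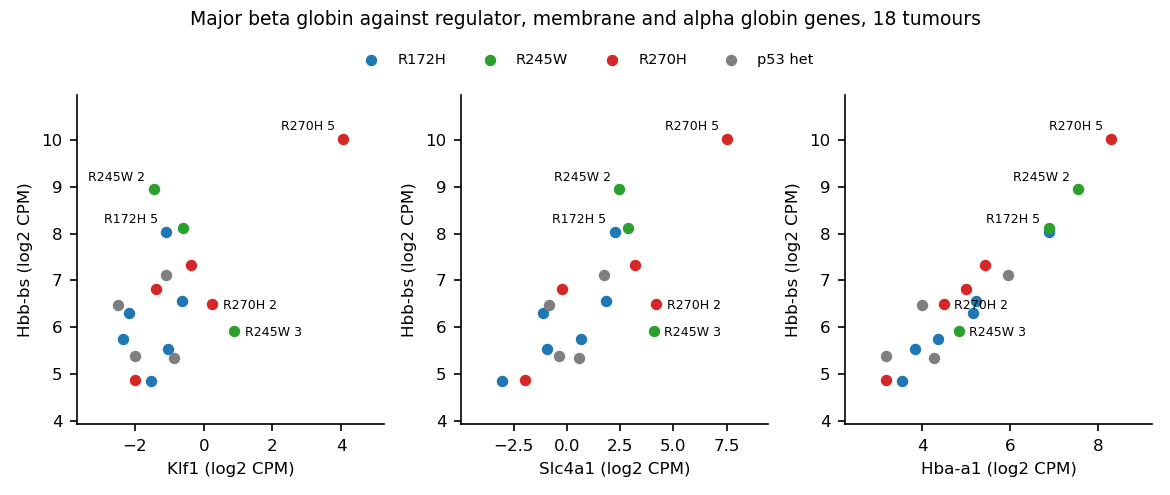
Each point is a tumour, coloured by genotype, with log2 CPM of Hbb-bs on the vertical axis against Klf1, Slc4a1 and Hba-a1. Hbb-bs lies close to a line with Hba-a1 (r = 0.961), whereas R245W 3 and R270H 2 have high Klf1 and Slc4a1 with moderate Hbb-bs and R245W 2 the opposite.

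In R270H against R172H tumours, 7 of the 29 genes rose and none fell at an adjusted p under 0.05 (edgeR quasi-likelihood test, Benjamini-Hochberg over all genes), where 5.28% of all tested genes passed in either direction. The 7 were Bpgm by 0.84 ± 0.20 (adjusted p = 0.0262), the Rh-associated glycoprotein Rhag by 5.49 ± 1.33 (0.0262), Kel by 5.74 ± 1.46 (0.0313) and Car1 by 3.52 ± 0.93 (0.0361). The others were Klf1 by 3.6 ± 0.99 (0.0437), Epb42 by 3.70 ± 1.05 (0.0481) and Slc4a1 by 4.62 ± 1.31 (0.0488), all log2 folds with their SE. Of these only Bpgm did not overlap, with every R270H tumour above every R172H tumour, as for 3.86% of all tested genes. Rhag and Kel each reached 10 counts in only 4 tumours, R270H 1, 2 and 5 and R245W 3, and so passed the filter largely through R270H. R172H tumours had at most 4 counts of Rhag and 6 of Kel, and p53 het tumours at most 6 of each. Folds of both genes against either group, here and below, are thus ratios to levels near the floor.

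Just outside the threshold lay Nfe2 at 2.47 ± 0.72 (adjusted p = 0.0528), Hbb-bt at 3.11 ± 0.91 (0.0542) and Ermap at 2.93 ± 0.86 (0.0564) in the same edgeR contrast. By role, log2 folds were above 0 for 4 of 4 globins, 2 of 3 heme enzymes, 6 of 6 regulators, 2 of 2 receptors, 10 of 10 membrane genes and 3 of 4 cytoplasmic genes. The median fold was 1.74 over the 29 genes and -0.02 over all tested genes.

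Without R270H 5, none of the 29 genes passed in this contrast. The share of all genes at an unadjusted p under 0.05 was not computed for fits without this tumour, here or below. At an unadjusted p under 0.05 there were 4: Bpgm at 0.58 ± 0.17 (edgeR, adjusted p = 0.0640), Car1 at 2.51 ± 0.86 (0.113), Kel at 3.39 ± 1.24 (0.131) and Rhag at 2.93 ± 1.07 (0.131). Klf1 was at 0.86 ± 0.63, Epb42 at 0.96 ± 0.71, Slc4a1 at 2.02 ± 1.05 and Hbb-bs at 0.06 ± 0.64. The median fold over the 29 genes was 0.47, and 21 of 29 lay above 0. With the kind of title as a covariate none of the 29 passed either. The folds of the 7 genes were then no smaller, from 1.0 ± 0.40 for Bpgm to 10.37 ± 3.6 for Rhag. Their SE were larger, with adjusted p from 0.454 to 0.584 (edgeR). This fit takes the title effect from the 4 p53 het tumours alone, which had 6, 1, 0 and 0 counts of Rhag and 6, 0, 1 and 1 of Kel. These folds therefore do not tell the part of title. None of the 29 passed without R172H 1, R172H 3 or R172H 4, with edgeR in each case.

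**Figure D4:**
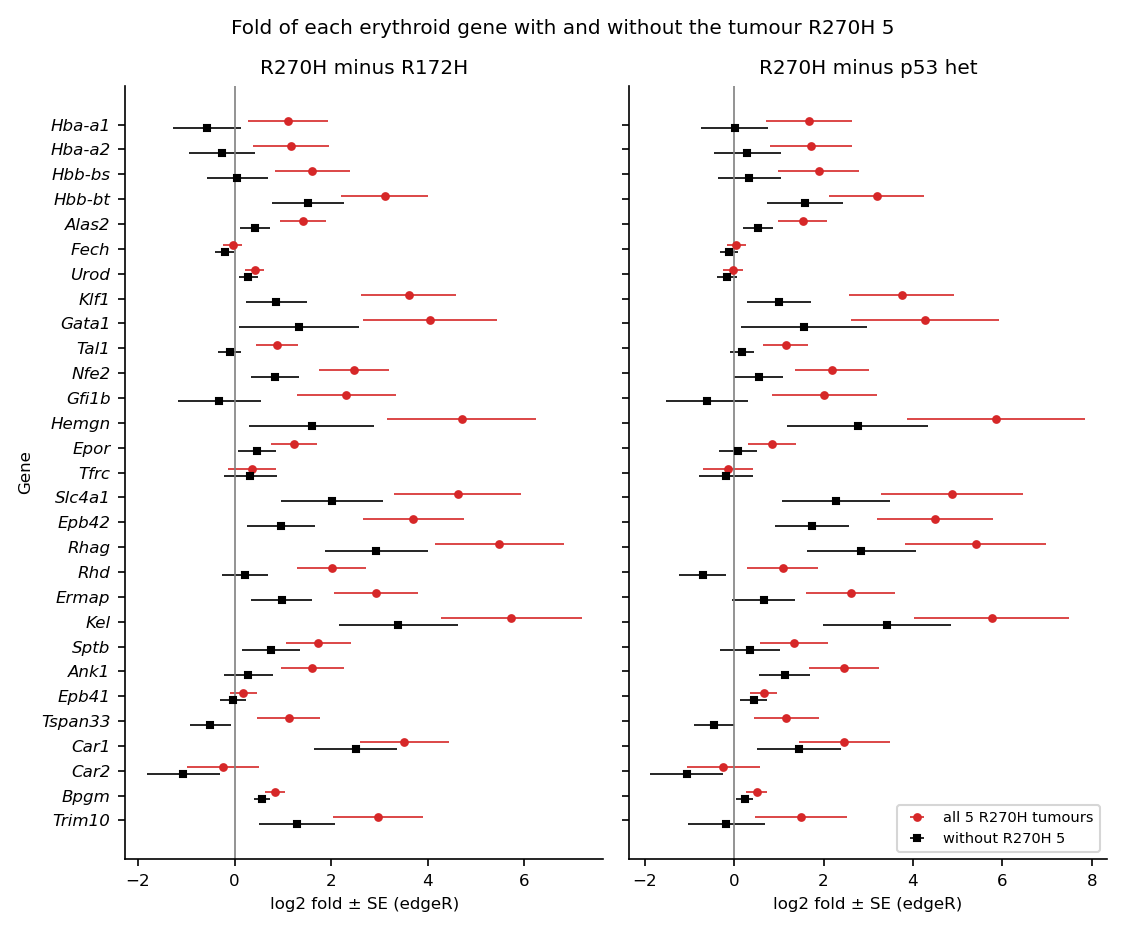
Points are log2 folds of each gene with SE bars (edgeR), for R270H minus R172H on the left and R270H minus p53 het on the right, with all 5 R270H tumours (red circles) and without R270H 5 (black squares). Most folds move toward 0 without that tumour, and Kel, Rhag and Car1 keep the largest values of R270H minus R172H.

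Against p53 het tumours none of the 29 genes passed in R270H tumours, where none of the 20616 tested genes did (0% of all). At an unadjusted p under 0.05 edgeR counted 16 of the 29 and 2364 of all tested genes (11.5%). DESeq2, fitted without the low-count filter, called 6 of the 29 (Epb42, Rhag, Slc4a1, Hbb-bt, Ank1 and Kel) and 329 genes in all. That number equals 1.6% of the 20616 genes edgeR tested, but DESeq2 calls can lie outside them. Lowest in p were Epb42 at 4.49 ± 1.30 (edgeR, adjusted p = 0.202), Rhag at 5.40 ± 1.58 (0.206) and Kel at 5.76 ± 1.74 (0.219). Hba-a1 was at 1.68 ± 0.96, Hbb-bs at 1.90 ± 0.91, Alas2 at 1.54 ± 0.55, Klf1 at 3.75 ± 1.18, Gata1 at 4.28 ± 1.66 and Tfrc at -0.14 ± 0.56, none past the threshold. Without R270H 5 edgeR counted 3 of the 29 at an unadjusted p under 0.05, Epb42 at 1.75 ± 0.83 (adjusted p = 0.481), Rhag at 2.85 ± 1.23 (0.443) and Kel at 3.42 ± 1.44 (0.430). Hba-a1 was then at 0.011 ± 0.75, Hbb-bs at 0.34 ± 0.70, Alas2 at 0.54 ± 0.34, Klf1 at 1.01 ± 0.71, Gata1 at 1.56 ± 1.41 and Tfrc at -0.18 ± 0.60. Folds were above 0 for 26 of the 29 genes, with a median of 1.72, and without R270H 5 for 21 genes, with a median of 0.35.

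In R245W against p53 het tumours none of the 29 genes passed in edgeR, where 0.0728% of all tested genes did. At an unadjusted p under 0.05 edgeR counted 2 of the 29, against 12.5% of all tested genes, and DESeq2 called none of them. Without R270H 5, which enters the shared estimate of spread, edgeR counted 10 of the 29, and the lowest adjusted p was 0.264, for Alas2. The share of all genes in that fit was not computed, so the 10 cannot be set against it. The folds that follow are those of the fit with all tumours. Ank1, an ankyrin of the membrane skeleton, was at 1.83 ± 0.83 (edgeR, adjusted p = 0.376), Urod at -0.54 ± 0.25 (0.390), Hba-a1 at 2.08 ± 1.05 (0.424), Alas2 at 1.13 ± 0.60 (0.446) and Hbb-bs at 1.85 ± 0.98 (0.451). Klf1 was at 1.65 ± 1.22, Gata1 at 2.27 ± 1.75 and Tfrc at -0.56 ± 0.64. Ank1, Alas2 and Slc4a1 did not overlap, with every R245W tumour above every p53 het tumour, as for 6.21% of all tested genes. Folds were above 0 for 21 of the 29 genes, with a median of 1.08.

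In R172H against p53 het tumours none of the 29 genes passed in edgeR, where 0.0776% of all tested genes did. At an unadjusted p under 0.05 edgeR counted 1 of the 29, against 12.3% of all tested genes, and DESeq2 called none. Lowest in p were Urod at -0.44 ± 0.21 (edgeR, adjusted p = 0.406), Epb41 at 0.48 ± 0.30 (0.535) and Bpgm at -0.34 ± 0.22 (0.548). Hba-a1 was at 0.58 ± 0.90, Hbb-bs at 0.29 ± 0.83, Alas2 at 0.12 ± 0.51, Klf1 at 0.14 ± 1.09, Gata1 at 0.23 ± 1.69 and Tfrc at -0.51 ± 0.53. Folds were above 0 for 16 of the 29 genes, with a median of 0.05, against -0.02 over all tested genes.

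Between R245W and the other mutants none of the 29 genes passed in edgeR, where 0.155% of all tested genes passed against R172H and 1.24% against R270H. Against R172H and without R270H 5, edgeR counted 8 of the 29 at an unadjusted p under 0.05, where the share of all genes was not computed. With all tumours it counted 1 of the 29 (10.8% of all tested genes), and DESeq2 called none. Lowest in p were Car1 at 2.13 ± 1.0 (adjusted p = 0.457), Kel at 3.09 ± 1.53 (0.482) and Alas2 at 1.01 ± 0.54 (0.521). Against R270H, edgeR counted 4 (18.4% of all tested genes) and DESeq2 called 1, Bpgm. DESeq2 called 1201 genes in all, a number equal to 5.83% of the genes edgeR tested. Lowest in p there were Bpgm at -0.79 ± 0.25 (edgeR, adjusted p = 0.119), Rhd at -2.0 ± 0.93 (0.263) and Urod at -0.52 ± 0.24 (0.263). Without R270H 5 they were at -0.53 ± 0.20 (edgeR, adjusted p = 0.186), -0.20 ± 0.57 (0.882) and -0.39 ± 0.24 (0.422). Every R245W tumour was below every R270H tumour for Bpgm, as for 7.5% of all tested genes. The median fold of the 29 genes against R270H was -0.94, and 0.27 without R270H 5.

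The summed level of granulocyte precursor genes was highest in the 3 tumours that were highest for Klf1 and Gata1. The 10 genes of granulocyte precursors, such as Elane, Mpo and Ltf, which store proteins in neutrophil granules, were each highest in R270H 5, and summed to 670 CPM there against 2.48 to 155.4 CPM in the other tumours. Next came R245W 3 with 155.4 CPM and R270H 2 with 104 CPM. Not every single gene kept this order: Mpo had 662 counts in p53 het 3, against 652 in R245W 3 and 256 in R270H 2. R245W 2 and R172H 5, high for globins and Alas2, had 5.74 and 29.1 CPM, and R245W 1, high for globins and regulators, had 49.5 CPM. R270H 4, whose median regulator was the lowest of the 18, had 73.7 CPM, but this was mostly Ltf, with 1488 counts. Its next highest of the 10 genes was Chil3 with 160 counts, and Elane, Ctsg, Ms4a3 and Cebpe had 0. The sum was 2.48 to 29.1 CPM in R172H, 5.74 to 155.4 CPM in R245W, 9.34 to 670 CPM in R270H and 9.45 to 41.7 CPM in p53 het tumours. In R270H against R172H tumours, 2 of the 10 genes rose, Ltf by 5.30 ± 1.40 (edgeR, adjusted p = 0.0361) and Chil3 by 3.62 ± 0.90 (0.0294). Without R270H 5 they were at 4.17 ± 1.34 (edgeR, adjusted p = 0.0923) and 2.17 ± 0.75 (0.115), and R270H 4 was then the highest tumour for Ltf. Of 6 mature neutrophil genes, 5 were highest in R270H 5, with S100a8 at 303 CPM and S100a9 at 411 CPM there, against at most 37.6 and 44.6 CPM elsewhere. The sum of the 6 (2220 CPM in R270H 5, 27.4 to 6052 CPM elsewhere) included Mmp9, which osteoclasts also make, at 1450 CPM in R270H 5 and up to 6045 CPM elsewhere. In R270H against R172H tumours 2 of these 6 rose, S100a8 by 4.72 ± 1.24 (edgeR, adjusted p = 0.0365) and S100a9 by 5.54 ± 1.30 (0.0234), and without R270H 5 they were at 2.45 ± 1.0 (0.172) and 3.26 ± 1.03 (0.0876). Of 8 genes of B cell precursors 6 were highest in R270H 5, among them Rag1 with 1.57 CPM against at most 0.473 CPM elsewhere. Their sum, 95.4 CPM there and 28.2 to 281 CPM elsewhere, was mostly Ebf1, at 88.5 CPM in R270H 5. The part of granulocyte precursors or marrow content in the folds of the erythroid genes was not tested.

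Megakaryocytes share Gata1, Nfe2 and Gfi1b with erythroblasts. Their 9 marker genes summed to 58.1 CPM in R270H 5 and to 13.1 to 44.1 CPM in the other tumours, and 5 of the 9 were highest in R270H 5. No relation of Gata1 to the platelet gene Pf4 was detected (r = 0.132, permutation p = 0.609, adjusted 0.696, and rho = 0.0266, permutation p = 0.920), with r = 0.144 without R245W 3 and R270H 5, -0.039 with a serial number and -0.038 without one. Ppbp, a platelet chemokine, rose in R270H against R172H tumours by 3.46 ± 0.61 (edgeR, adjusted p = 0.00982). Every R270H tumour lay above every R172H tumour for it, as for 3.86% of all tested genes. Without R270H 5 its fold was 3.11 ± 0.61 (edgeR, adjusted p = 0.0204), but Ppbp did not pass with title as covariate (0.454). Mast cell and basophil genes summed to 26.9 CPM in R270H 5, below p53 het 1 (36.6 CPM) and R172H 4 (34.1 CPM). Of these 8 genes 4 were highest in R270H 5, among them Mcpt8 with 81 counts against at most 9 in any other tumour. None of 8 osteoclast, 8 osteoblast, 9 macrophage and 8 endothelial genes was highest in R270H 5. Cd68, a macrophage gene, fell in R270H against R172H tumours by 1.45 ± 0.40 (edgeR, adjusted p = 0.0445), and was at -1.44 ± 0.45 (0.0860) without R270H 5, while the 9 macrophage genes had 4 folds above and 5 below 0.

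Mpo, an enzyme of granulocyte precursors, had r = 0.578 with Klf1 (permutation p = 0.0140, adjusted 0.0248) and rho = 0.352 (permutation p = 0.151, adjusted 0.202). This relation rested on R245W 3 and R270H 5, as r was -0.02 without them, and it was 0.516 in tumours with a serial number and 0.612 in those without. Over all 18 tumours no relation of Tal1 to the endothelial gene Cdh5 was detected (r = 0.162, permutation p = 0.475, adjusted 0.585, and rho = 0.0877, permutation p = 0.728), with r = 0.0142 without p53 het 4 and R270H 5. Its r was 0.443 without R270H 5 alone, -0.14 with a serial number, 0.404 without one, and 0.746 among these without R270H 5. Car2 went with the osteoclast enzyme Acp5 (r = 0.663, permutation p = 0.00254, adjusted 0.00508, and rho = 0.682, permutation p = 0.00221, adjusted 0.00505). Without p53 het 3 and 4 its r was 0.486 (permutation p = 0.0582), so that the relation no longer passed, and r was 0.813 with a serial number and 0.686 without one. In R270H 5, Car2 reached 156 CPM with Acp5 at 1067 CPM, whereas p53 het 3 reached 157 CPM with Acp5 at 2599 CPM.

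**Figure D5:**
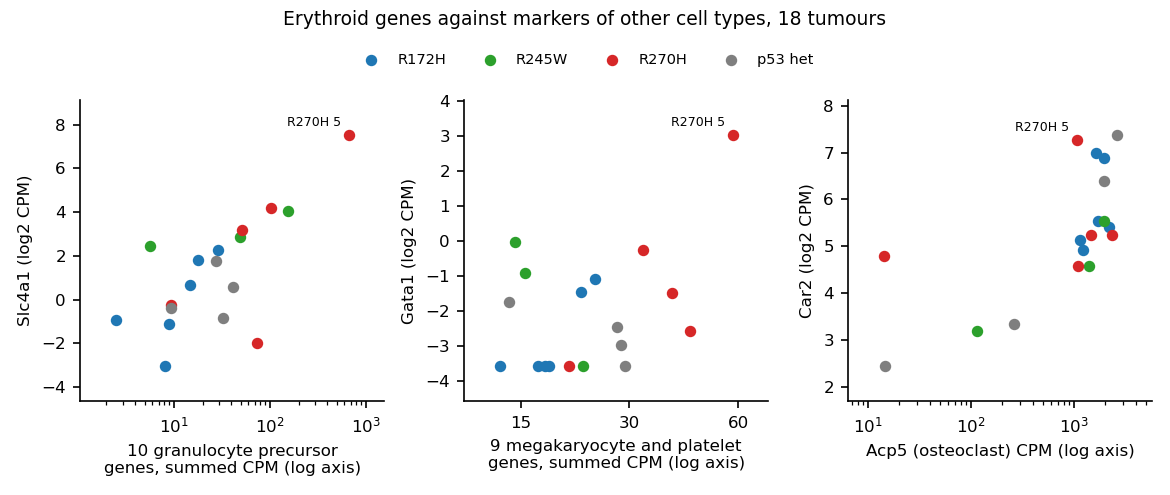
Each point is a tumour: log2 CPM of Slc4a1 against the summed CPM of 10 granulocyte precursor genes, of Gata1 against 9 megakaryocyte and platelet genes, and of Car2 against Acp5, with horizontal log axes. R270H 5 lies at the upper right of the first panels (670 and 58.1 CPM), and the 3 tumours with the least Car2 are among the 4 with the least Acp5.

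Of the genes of the same pathways that are not among the 30, 47 were tested. In R270H against R172H tumours, 3 of 10 other heme synthesis genes passed, Abcb10, a transporter of the mitochondrial membrane, which rose by 0.99 ± 0.23 (edgeR, adjusted p = 0.0229), and Alas1 and Slc25a39, which fell by 0.63 ± 0.17 (0.0386) and 0.56 ± 0.15 (0.0402). Alas1 is the form of the first heme enzyme that other tissues use, and every R270H tumour lay below every R172H tumour for it, as for 2.87% of all tested genes. Among other membrane genes Cldn13 rose by 6.35 ± 1.66 (edgeR, adjusted p = 0.0406), with 12.2 CPM in R270H 5 and at most 0.793 CPM elsewhere. Cldn13 reached 10 counts only in R245W 3 and R270H 1, 2 and 5, and so passed the filter largely through R270H. R172H tumours had at most 2 counts of it, so its fold is a ratio to levels near the floor. Without R270H 5 none of these 4 genes passed, with adjusted p from 0.0592 (Abcb10) to 0.185 (Cldn13) in edgeR. None of 9 late erythroid genes, 10 cofactors and other transcription factors and 9 genes of erythropoietin signalling passed in that contrast. At an unadjusted p under 0.05 edgeR counted 4, 3 and 1 of them, against 23.2% of all tested genes. DESeq2 called 10 pathway genes, among them Hbq1b, a theta globin outside the 47. It called 2243 genes in all, a number equal to 10.9% of the genes edgeR tested. E2f4, a cell cycle factor among the listed transcription factors, was higher in R245W than in R270H tumours by 1.12 ± 0.24 (edgeR, adjusted p = 0.0334). Every R245W tumour lay above every R270H tumour for E2f4, as for 5.44% of all tested genes. Without R270H 5 it was at 1.29 ± 0.24 (0.0273, edgeR), but it did not pass with title as covariate (0.689).

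Against p53 het none of the 47 pathway genes tested passed in any mutant with edgeR. At an unadjusted p under 0.05 it counted 10 in R270H, 4 in R245W and 4 in R172H, against 11.5%, 12.5% and 12.3% of all tested genes. Those that DESeq2 called included Cldn13, Add2 and Slc25a39 in R270H, while it called 1 in R245W (Stat5a) and none in R172H. In R270H the lowest p-values per list were those of Slc25a39 at -0.64 ± 0.17 (adjusted p = 0.185), Add2 at 2.76 ± 0.74 (0.195), Tent5c at 0.80 ± 0.36 (0.403), Bcl11a at 1.91 ± 0.66 (0.281) and Kit at 1.19 ± 0.35 (0.215), with edgeR. In R245W they were those of Alad at 0.53 ± 0.30 (0.480), Cldn13, which had 0 counts in every p53 het tumour (0.396), Prdx2 at -0.20 ± 0.20 (0.709), E2f4 at 0.90 ± 0.26 (0.205) and Stat5a at -0.81 ± 0.22 (0.194). In R172H, for the lists other than heme synthesis, they were those of Add2 at 1.08 ± 0.69 (0.547), Xpo7 at -0.61 ± 0.23 (0.307), Zfpm1 at 0.62 ± 0.36 (0.505) and Kit at 0.96 ± 0.34 (0.290). Embryonic and theta globins summed to 1.21 CPM in R270H 5 and to at most 0.223 CPM in any other tumour. In R270H 5 this was mostly the theta globin Hbq1b, with 23 counts. The embryonic Hbb-y and Hba-x had 1 count each there, and Hbb-bh1 and Hbb-bh2 had 0.

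Cell line 14, grown in culture, had 0 counts in both libraries for 7 of the 29 genes: the 4 globins, Slc4a1, Kel and Car1. A count of 0 allows up to 0.0409 CPM in the siRNA library of 73.4 M counts and 0.0468 CPM in the control library of 64.1 M counts. In all, 12 genes had 3 counts or fewer in both libraries, Gata1 and Hemgn among them. With siRNA, Trp53 itself was at 30.6 CPM (exact Poisson interval 29.3 to 31.9), against 94.9 CPM (92.5 to 97.3) in the control, a log2 ratio of CPM plus 1 of -1.60.

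The 5 genes at 10 CPM or more in the line were those that many cells use. Tfrc had 518 CPM with siRNA (exact Poisson interval at a confidence level of 95%, 513 to 523) and 489 CPM (484 to 495) in the control. Bpgm had 26 CPM (24.8 to 27.2) with siRNA and 20.4 CPM (19.3 to 21.5) in the control, and Epb41 24.1 CPM (23 to 25.3) with siRNA and 29 CPM (27.7 to 30.4) in the control. Fech had 63.2 CPM with siRNA and 59.8 CPM in the control, and Urod 41.4 and 37.9 CPM. The log2 ratios of siRNA over control were 0.34 for Bpgm, 0.12 for Urod, 0.08 for Tfrc, 0.08 for Fech and -0.26 for Epb41. With 1 library in each state there is no replicate check and no test, and the intervals cover counting error only. Car2, at 5.58 CPM or more in every tumour, had 0.218 CPM with siRNA and 0.234 CPM in the control.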

How the data were processed

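RNA of crushed frozen tumours was extracted with Trizol and column kits and made into Illumina libraries, per the labels' protocols. Per the submitters' processing notes the authors aligned reads to GRCm38 with STAR 2.6.0b. The authors deposited raw counts per gene in 1 table of 20 libraries. The program that counted them, its annotation, its strand setting and its handling of shared reads are not given in the sources used here. Of 49585 gene IDs, 49326 matched a symbol.

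Groups follow the labels. The 18 tumours were fitted in R 4.3.3 with edgeR 4.0.16: filterByExpr by genotype (minimum count 10, minimum total 15), TMM scaling, and a quasi-likelihood model with 1 mean per genotype and 6 contrasts. p-values were adjusted by Benjamini-Hochberg over 20616 genes within each contrast, with a threshold of 0.05. They rest on the spread among tumours of 1 genotype. The SE of a log2 fold is its size over the square root of F. Log2 CPM used a prior count of 2. Exon lengths are from GENCODE M21, promoters from RefSeq. The fit was tested on simulated data.

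The 30 genes and the other lists were chosen with earlier results of these data known. Named with fold and p are all that passed and the 3 of lowest p in each contrast, with Hba-a1, Hbb-bs, Alas2, Klf1, Gata1 and Tfrc always given against p53 het; for other lists, those that passed or the 1 of lowest p against p53 het. Levels outside this rule were chosen after their values were seen. Alternatives were DESeq2 1.42.0, its size factors, the 30 genes left out of library sizes, no low-count filter, only the groups compared, p53 het by kind of title, title as covariate, and each tumour left out. For correlations they were no TMM and a prior count of 0.5; for the line, CPM plus 0.1 or 5 and TMM. Cell line ratios are log2 of CPM plus 1. Results for some genes of the other lists are not reported here.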

Additional observations from a re-analysis of the deposited data

Results flagged for a closer look

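In each genotype of 4 or more tumours, the gap between the highest or lowest tumour and its nearest neighbour was set against the group's range with Dixon's 95% critical value, for each of 29 genes. In 34 of 87 such groups a tumour exceeded it. The 29 genes were read in the same tumours and many vary together, so these groups are not independent. Their count can therefore not be set against a rate due to chance.

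R270H 5 accounted for 24 of the 34, always as the highest of the R270H tumours. The CPM values in it were, among globins and heme enzymes, Hba-a1 (321), Hba-a2 (105), Hbb-bs (1059), Hbb-bt (151), Alas2 (99.2) and Fech (115). Among regulators and the erythropoietin receptor they were Klf1 (16.8), Gata1 (8.2), Tal1 (24.1), Nfe2 (15.2), Gfi1b (4.34), Hemgn (31.6) and Epor (11). Among membrane genes they were Slc4a1 (188), Epb42 (29.5), Rhag (14.4), Rhd (25), Ermap (36), Kel (20.2), Ank1 (57.5) and Tspan33 (27), and among cytoplasmic genes Car2 (156), Bpgm (38.5) and Trim10 (27.5). The 10 granulocyte precursor genes were also each highest in this tumour, and their part in these values was not tested.

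R172H 5 exceeded it as the highest R172H tumour for the 4 globins, Alas2 and Trim10, with CPM values of Hba-a1 (127), Hba-a2 (46.9), Hbb-bs (284), Hbb-bt (15.7), Alas2 (23.5) and Trim10 (3.9). Its regulators were not apart in this way. R172H 6 was apart for Rhd (3.88 CPM), p53 het 1 for Rhag (0.237 CPM), and p53 het 4 was highest of its group for Sptb (19.6 CPM) and lowest for Tal1 (2.57 CPM).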

How the results depend on the processing

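No paired analysis was possible because the labels give no replicate numbers, and those used here only name tumours. DESeq2, fitted to all genes without the low-count filter, called more genes than edgeR: 307 in R172H, 371 in R245W and 329 in R270H against p53 het, 352 in R245W against R172H, 1201 in R245W against R270H and 2243 in R270H against R172H. Of the erythroid genes it called 6 in R270H against p53 het, 1 in R245W against R270H and 11 in R270H against R172H. Without a low-count filter the counts of all genes were 33 in R172H against p53 het, 2 in R270H against p53 het, 109 in R245W against R270H and 633, with 4 erythroid genes, in R270H against R172H. With only the groups compared they were 0 in R172H and 4 in R245W against p53 het, and 1659, with 4 erythroid genes, in R270H against R172H. Against p53 het of the same kind of title, and likewise with title as covariate, they were 3 in R172H, 8 in R245W and 4 in R270H. The covariate left 8 genes in R245W against R270H, and 1 gene and 0 erythroid genes in R270H against R172H. The 7 folds were no smaller there and their SE larger. As title is separated through the p53 het tumours alone, these folds do not tell its part. Leaving out 1 tumour in turn gave 0 to 166 (R172H), 6 to 28 (R245W) and 0 to 21 genes (R270H) against p53 het, 14 to 39 in R245W against R172H, 47 to 412 in R245W against R270H and 477 to 1303 in R270H against R172H. The erythroid genes called in the last contrast were then 0 to 9, with 0 without R270H 5, R172H 1, R172H 3 or R172H 4, and 0 in every other contrast.

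The direction turned for folds that had not passed. In R172H against p53 het of the same kind of title, and with title as covariate, Hba-a1 was at -0.036, Alas2 at -0.089, Klf1 at -0.48, Gata1 at -0.26 and Tfrc at 0.018. With the covariate Urod was at 0.055 in R245W against R270H. Leaving out 1 tumour gave, in R172H against p53 het, -0.15 to 1.43 for Hba-a1, -0.36 to 0.72 for Hbb-bs, -0.12 to 0.33 for Alas2, -0.13 to 0.50 for Klf1, -0.78 to 0.98 for Gata1 and -0.80 to 0.15 for Tfrc. For Tfrc it gave -1.61 to 0.095 in R245W and -0.56 to 0.51 in R270H against p53 het. The cause was not tested. DESeq2's size factors, and library sizes without the erythroid genes, changed no count of erythroid calls. The correlations kept direction and side of the threshold in 16 of 16 alternatives, and in the line only the ratio of Tfrc moved beyond its counting interval, to 0.11 with TMM.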
